A study of Mus musculus with 4 samples.

Results

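Chemokines are small secreted proteins that guide the migration of leukocytes and other cells, and they act on receptors of the G protein-coupled class. The family names describe the spacing of conserved cysteines near the amino terminus: adjacent in CC ligands, separated by a single residue in CXC ligands, and arranged otherwise in Xcl1 and Cx3cl1. In skin, keratinocytes, fibroblasts, vessel walls and resident macrophages secrete them, and macrophages, Langerhans cells, mast cells and T cells carry most of the receptors. The genes described here were picked by a rule on gene names, set with earlier results of these data known. It took non-control probes whose gene name began with Ccl, Cxcl, Ccr or Cxcr followed by a number. Names equal to Cx3cl1, Cx3cr1, Xcl1 or Xcr1 were also taken, with Cxcl9 and Cxcl10 among those left out. The genes reported come to 77 spots of 68 probes for 52 genes, of 28034 genes on the array. Of these, 46 probes for 36 genes entered the test, among 17555 genes in all, because both arrays of 1 group or the other measured them well above background. They were 25 ligands and 11 receptors, with the probe named Cxcr7 in the file listed under its later symbol, Ackr3.

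Full-thickness dorsal skin of male mice aged 42 days was profiled on one-colour arrays. Its follicles were labelled telogen in both groups, the phase in which hair follicles rest. The cKO mice lacked Fgf18, a secreted fibroblast growth factor, conditionally in keratin 5-positive epithelial cells. Whether other cells of the skin also lost it was not measured here. The WT group was C57BL/6, the strain also given for the cKO mice, and whether it carried a Cre driver or a floxed allele is not given in the labels. RNA of 3 mice was combined into 1 pool per group, and each pool was read on 2 arrays. Every SD, standard error (SE) and p below therefore measures the spread between duplicate arrays of 1 pool, and the tests compare 2 pools, not 2 genotypes. The 75th percentile of the processed signal, on which each array was scaled, was 1403 and 1453 for cKO and 1271 and 1316 for WT. Duplicate arrays correlated at r = 0.997 and 0.996 across genes, which are not independent replicates. Levels below are log2 of the processed signal relative to that percentile, and levels of different probes are not comparable with each other. Fgf18 itself had levels of 1.86 on each cKO array and 2.18 and 2.21 in WT (log2 change -0.33, SE 0.025, adjusted p = 0.0035 by limma). Which part of the gene was deleted is not in the labels, and untargeted cells of whole skin may transcribe it, so the probe is no check of the labels. A gene was called, and said to have risen or fallen, at an adjusted p under 0.05 (limma, Benjamini-Hochberg over all genes tested) with a change of at least 1.5-fold.

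Among chemokine and chemokine receptor genes, 7 of 36 fell and 1 rose in the cKO pool. Those that fell were the ligands Ccl4, Ccl3, Ccl12, Cxcl13 and Ccl7 and the receptors Ccr4 and Ccr9, by 1.62-fold to 2.15-fold. The receptor Cxcr4 rose 1.59-fold. The share of members that fell was 19.4%, against 4.82% of all genes tested, and the share that rose was 2.78%, against 5.67%. Ccl3 entered the test through its WT arrays alone, and a gene so admitted is more likely to be called lower. Among probes well above background on every array, 6 of 33 members fell and 1 rose, against 794 and 737 of 16632 genes. The median log2 change of the 36 members was -0.15, with 24 negative and 12 positive values, and the median of all genes tested was -0.05. The member median moved to -0.09 without cKO replicate 1 (all genes tested -0.05). It moved to -0.07 with normexp background correction and quantile normalization (all genes tested -0.01). At an adjusted p under 0.05 without a limit on fold, 24 of the 36 genes passed in limma, or 66.7% against 55.8% of all genes tested. In 29 of the 36 genes both arrays of 1 pool lay above both arrays of the other, a share of 80.6% against 81.8% of all genes tested, so separation of the arrays by itself does not mark these genes.

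**Figure D1:**
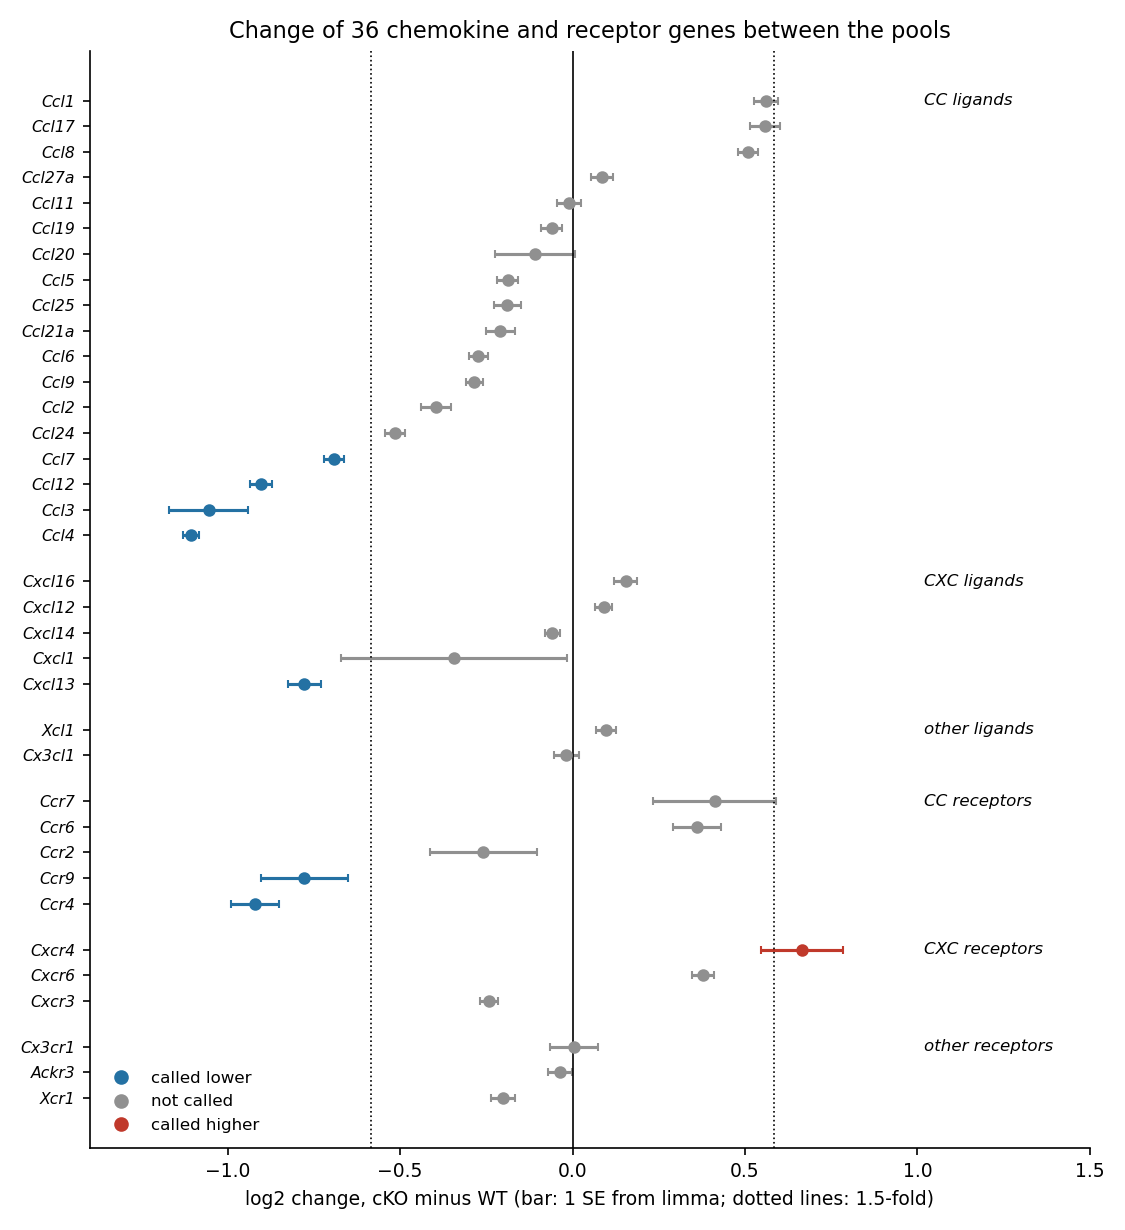
Log2 change between the cKO and WT pools (x axis, bar 1 SE from limma) of the 36 chemokine and receptor genes (y axis), grouped by class, with dotted lines at 1.5-fold. The 7 genes called lower lie left of the left line, Cxcr4 is the gene called higher, and Ccl1, Ccl17 and Ccl8 lie just inside the right line.

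Each value comes from a probe of 60 bases. The first 30 bases of the probe are given for the 8 called genes, because the change of each rests on that sequence, read 5′ to 3′ from the scanner files and with no part marked.
Ccl12: tccttgaaccttcatgtctaggctgagagt
Ccl7: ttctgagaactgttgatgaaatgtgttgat
Ccl4: tattatttatgttttagttataggacgcgt
Ccl3: catgaactgacaaatgtacaatagatgctt
Cxcl13: gatttattgtcttgcattaaaaccagtaac
Ccr4: gaggaaatcaccccttcatgacaatgagcc
Ccr9: caggcaagaggcacttgctgcaggttctcc
Cxcr4: aggaagaaactgaacattccagaatgtgtg
On mm9 the whole probes lie at chr11:81916710-81916769 for Ccl12, chr11:81860656-81860715 for Ccl7, chr11:83478052-83478111 for Ccl4 and chr11:83461358-83461417 for Ccl3. That of Cxcl13 lies at chr5:96389861-96389920. Receptor probes lie at chr9:114400791-114400850 for Ccr4, chr9:123690334-123690393 for Ccr9 and chr1:130485079-130485138 for Cxcr4. Between probes of different member genes, the longest identical run was 13 bases, shared by Ccl12 and Ccl8, whose values had opposite signs. The Ccr4 gene was read by 2 probes that overlap by 30 bases, on mm9 at chr9:114400791-114400820 on the minus strand, so that their agreement is not independent. Their shared run, all of it in capitals, was the following.
Ccr4 overlap: CTTGAGTGGATCTCTAGTTTGGTTGAACTA
For 10 of the 36 genes more than 1 probe was kept. Both probes had the same sign in all 10, and they differed by at most 0.30 on the log2 scale, in Cxcr4. Tested probe by probe, where 9.72% of all kept probes were called, both probes of Ccl7 and both of Ccr4 were called lower.

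Of the 5 ligands that fell, 4 are CC ligands known to attract monocytes, macrophages or effector T cells. CC ligands were 18 of the 25 ligands tested, and the share that fell was 22.2%, near the 20% of the 5 CXC ligands. Ccl12, a mouse monocyte chemoattractant, had levels of -0.98 and -0.93 in cKO and -0.07 and -0.03 in WT. Both cKO arrays were low and the groups did not overlap. Ccl12 fell 1.87-fold (log2 -0.90, SE 0.032, limma adjusted p = 0.0013). Ccl7, another monocyte attractant, had levels of -0.29 and -0.32 in cKO and 0.37 and 0.41 in WT. Again the cKO arrays were the lower ones, without overlap. Ccl7 fell 1.62-fold (log2 -0.69, SE 0.029, limma adjusted p = 0.0015), and its second probe gave -0.66. Ccl2, the best known ligand of Ccr2, was also lower on both cKO arrays (0.57 and 0.66 against 1.03 and 0.99), but its log2 value of -0.40 (SE 0.044, limma adjusted p = 0.0071) did not reach 1.5-fold.

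Ccl4 and Ccl3, the macrophage inflammatory proteins, had the lowest log2 values of the genes reported in the main processing, an order that did not hold with normexp and quantile, where Ccl12 (-0.84), Cxcl13 (-0.69) and Ccl7 (-0.67) lay lower. Ccl4 stood at -4.07 on each cKO array and at -2.95 and -2.97 in WT. The duplicates were close to each other and the pools did not overlap. It fell 2.15-fold (log2 -1.11, SE 0.023, limma adjusted p = 0.00064), and by 0.65 on the log2 scale with normexp background correction and quantile normalization. Ccl3 had -5.78 and -5.49 in cKO and -4.56 and -4.60 in WT. Both WT arrays were higher, and of the cKO arrays only 1 measured it well above background. Ccl3 fell by 1.06 on the log2 scale (SE 0.12, limma adjusted p = 0.0068), but its value with normexp background correction and quantile normalization was -0.33, not called. Ccl5, a related ligand, which is made by activated T cells among others, had a value of -0.19 (SE 0.032, limma adjusted p = 0.017), and its second probe gave -0.06.

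Cxcl13, a B cell attractant of lymphoid follicles, was the CXC ligand that fell. Its levels were -1.91 and -1.80 in cKO and -1.06 and -1.09 in WT. The cKO arrays were low and the groups did not overlap. The fall was 1.71-fold (log2 -0.78, SE 0.048, limma adjusted p = 0.0025), and its receptor Cxcr5 was not well above background on any array.

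**Figure D2:**
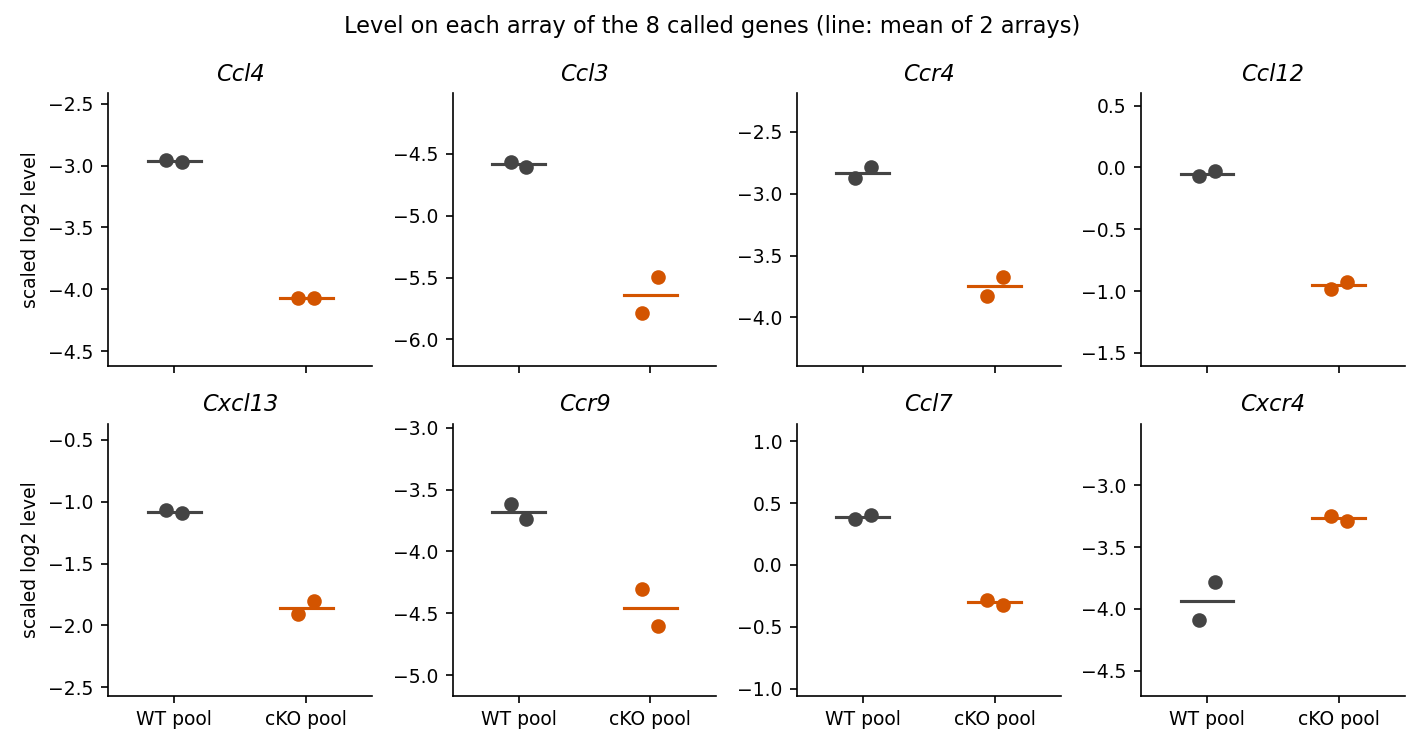
Scaled log2 level (y axis) of the 8 called genes on each of the 2 WT and 2 cKO arrays (x axis), with a point per array and a line at the mean of 2 arrays; every panel spans the same log2 range. In 7 panels both cKO points lie below both WT points, and for Cxcr4 both lie above, with the WT arrays at -4.09 and -3.78.

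Among the receptors, each of the 3 calls was lost in at least 1 alternative setting, against 1 of the 5 calls among ligands, that of Ccl3. Ccr4, found on skin-homing and type 2 helper T cells, had levels of -3.83 and -3.67 in cKO and -2.87 and -2.78 in WT. The WT arrays were higher without overlap. Ccr4 fell 1.89-fold (log2 -0.92, SE 0.071, limma adjusted p = 0.0035), and its log2 value of -0.53 with normexp background correction and quantile normalization was not called. Ccr9, known as a gut-homing receptor, had -4.30 and -4.60 in cKO and -3.62 and -3.73 in WT. It was lower on both cKO arrays, whose duplicates differed by 0.30. Ccr9 fell 1.71-fold (log2 -0.78, SE 0.13, limma adjusted p = 0.015), a call lost without WT replicate 1 (limma adjusted p = 0.062), with dim probes left in (0.062), and under normexp background correction and quantile normalization (log2 -0.45).

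Cxcr4, the receptor of the stromal ligand Cxcl12, had -3.25 and -3.29 in cKO and -4.09 and -3.78 in WT. It was higher on both cKO arrays. Its rise of 1.59-fold (log2 0.67, SE 0.12, limma adjusted p = 0.020) was the least firm of the 8 calls: it was lost in 6 of 15 alternatives, among them leaving out cKO replicate 1 (limma adjusted p = 0.097), cKO replicate 2 (0.086) or WT replicate 1 (log2 0.51). The second Cxcr4 probe, which neither WT array measured well above background, gave a log2 value of 0.37 (limma adjusted p = 0.16).

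Several ligands came close to 1.5-fold upward without being called. Ccl1, a T cell product, had levels of -2.10 and -2.03 in cKO and -2.61 and -2.64 in WT, a gain of 0.56 on the log2 scale (SE 0.035, adjusted p = 0.0026 by limma). Ccl17, made by dendritic cells and keratinocytes, had -2.02 and -2.10 in cKO and -2.64 and -2.59 in WT, a gain of 0.56 (SE 0.044, adjusted p = 0.0037 by limma). Ccl8, a product of resident skin macrophages in mice, had 5.72 and 5.74 in cKO and 5.20 and 5.24 in WT, a gain of 0.51 (SE 0.029, adjusted p = 0.0023 by limma). In all 3 the cKO arrays were the higher ones, without overlap. Each crossed the threshold in some settings: Ccl1 without cKO replicate 1 (0.59), Ccl17 without cKO replicate 2 (0.60) or WT replicate 2 (0.59), both when the percentile was taken over probes measured above background on every array (0.59 and 0.59), and Ccl8 with quantile normalization (0.70) or with normexp and quantile (0.69). Downward, the eosinophil attractant Ccl24 was nearest to the threshold with -0.52 (SE 0.029, limma adjusted p = 0.0023), and its second probe gave -0.40.

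The remaining ligands were not called and, except Cxcl1, lay within 0.3 of zero on the log2 scale. Ccl9 and Ccl6, a pair of related CC ligands of myeloid cells, had log2 values of -0.29 and -0.27. Ccl21a and Ccl19, which draw Ccr7-bearing dendritic and T cells into lymphatic vessels and nodes, had -0.21 and -0.06. Ccl27a, a keratinocyte ligand that attracts skin-homing T cells, had 0.09, and Cxcl14, an abundant product of normal epithelium, had -0.06 (0.13 with quantile normalization and 0.14 with normexp and quantile). In the same order of settings, Ccl27a had 0.22 and 0.24 and Ccl21a -0.08 and -0.09, none called. The probes of Ccl21a and Ccl27a may also read near-identical gene copies of the mouse genome, so these values are uncertain for the single gene. Other log2 values were -0.01 for the eosinophil attractant Ccl11, -0.11 for the Ccr6 ligand Ccl20, -0.19 for the Ccr9 ligand Ccl25, 0.09 for Cxcl12 (0.18 and 0.22 in the same settings), 0.15 for the Cxcr6 ligand Cxcl16, 0.10 for Xcl1 and -0.02 for Cx3cl1. Cxcl1, a neutrophil attractant, had levels of -5.45 and -4.61 in cKO and -4.63 and -4.74 in WT. Its cKO duplicates differed by 0.85, more than the pools did, and it was well above background on 1 of them, so its log2 value of -0.34 (SE 0.33, limma adjusted p = 0.42) ran from -0.77, then called, without cKO replicate 2 to 0.08 without cKO replicate 1.

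Of the receptors that were not called, Cxcr6 (log2 0.38, SE 0.032), Ccr6 (0.36, SE 0.069) and Ccr7 (0.41, SE 0.18) had positive values. Ccr7 rested on scattered arrays, with -3.51 and -3.94 in cKO and -4.06 and -4.22 in WT, and its value ran from 0.20 without cKO replicate 1 to 0.63, then called (limma adjusted p = 0.045), without cKO replicate 2. Ccr2, the monocyte receptor, had -0.26 (SE 0.155), with overlapping arrays at -0.48 and -0.82 in cKO and -0.50 and -0.29 in WT, and its second probe gave -0.46. Without single arrays the Ccr2 value ran from -0.43 without cKO replicate 1 to -0.09 without cKO replicate 2. Cxcr3, of activated T cells, had -0.24, Xcr1, of cross-presenting dendritic cells, had -0.20, and the scavenging receptor Ackr3 had -0.04. Cx3cr1, of monocytes and macrophages, did not rise well above background in WT, so no fold is given for it (log2 levels of -5.25 and -5.08 in cKO and -5.18 and -5.16 in WT).

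Of the 52 genes, 16 did not enter the test. They were 8 ligands, Ccl22, Ccl28, Cxcl2, Cxcl3, Cxcl5, Cxcl11, Cxcl15 and Cxcl17, and 8 receptors, Ccr1, Ccr1l1, Ccr3, Ccr8, Ccr10, Cxcr1, Cxcr2 and Cxcr5. Of these 16, 12 were not well above background on any array. Ccl22, Cxcl11, Ccr3 and Ccr8 were so on 1 cKO array each. The neutrophil receptors Cxcr1 and Cxcr2 and their ligands Cxcl2, Cxcl3 and Cxcl5 were all in the group with no array above background.

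Ligands and their receptors did not share the sign of their values throughout. Among 13 pairs of textbook specificity with both partners reported, 6 had values of the same sign and 7 of opposite sign. In 4 of these 7, a partner changed sign in some alternative (Ccl20, Ccl19, Ackr3, Cx3cl1 and Cx3cr1), and Cx3cr1 entered only through its cKO arrays. The other 3 were Ccl17 with Ccr4, Ccl21a with Ccr7 and Xcl1 with Xcr1. These pairs share genes and arrays and are not independent. Ccl12 (-0.90) and Ccl7 (-0.69), which fell, and Ccl2 (-0.40) stood beside their receptor Ccr2 at -0.26. The widest contrast was that of Ccl17 (0.56, not called) and Ccr4 (-0.92, called). Cxcl12 had 0.09 (0.05 by its second probe) beside the called rise of Cxcr4, and Ackr3, which also binds Cxcl12, had -0.04. Ccl25 had -0.19 beside Ccr9 at -0.78. None of the differences between partners was tested.

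**Figure D3:**
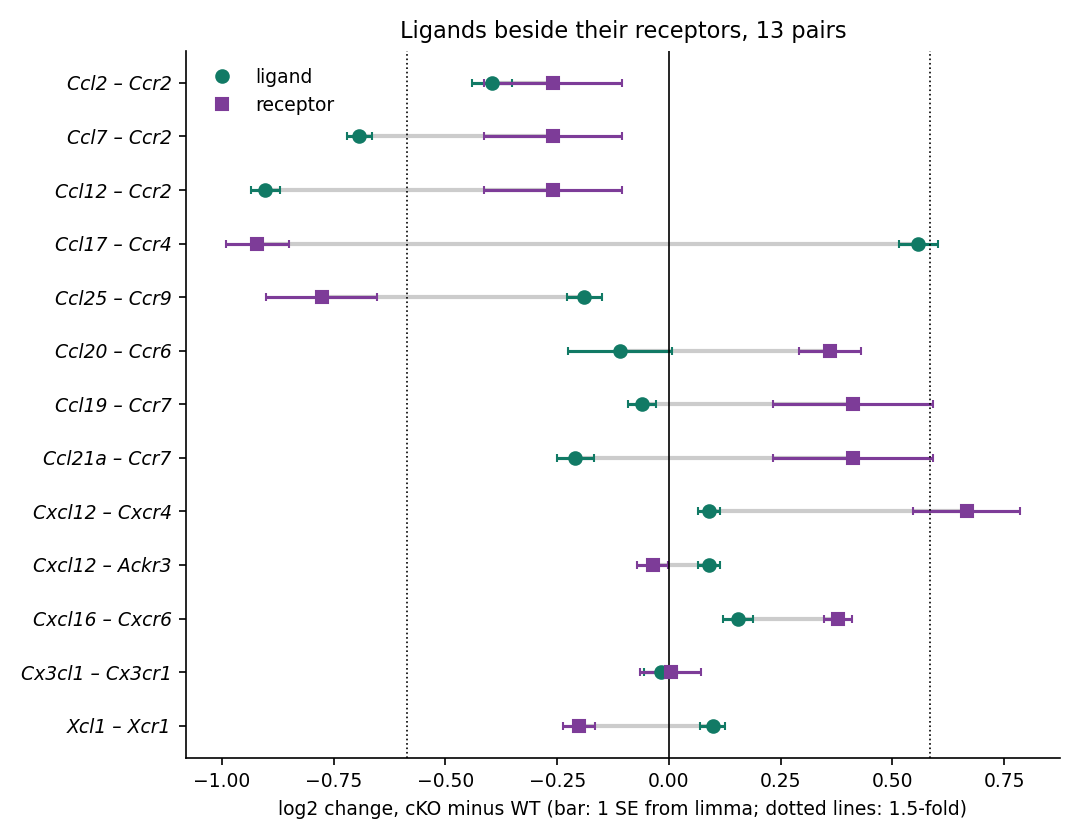
Log2 change between the cKO and WT pools (x axis, bar 1 SE from limma) of each ligand (circle) and its receptor (square) for 13 pairs (y axis), with dotted lines at 1.5-fold. Ccl12, Ccl7, Ccl2 and Ccr2 all lie on the left, and the Ccl17 and Ccr4 pair spans both sides of zero, from 0.56 to -0.92.

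The CC ligand genes of mouse chromosome 11 lie in 2 groups, and values differed in sign between close neighbours. From Ccl2 onward along mm9, log2 values were -0.40 (Ccl2), -0.69 (Ccl7), -0.01 (Ccl11), -0.90 (Ccl12), 0.51 (Ccl8) and 0.56 (Ccl1). Ccl12 and Ccl8, whose probes are 13.4 kb apart, thus had opposite signs. In the second group, which begins 1349 kb further on, all 5 values were negative: -0.19 (Ccl5), -0.29 (Ccl9), -0.27 (Ccl6), -1.06 (Ccl3) and -1.11 (Ccl4). Of these, only Ccl3 and Ccl4, whose probes are 16.7 kb apart, were called, and the median of all genes tested was -0.05. On chromosome 9, among 6 receptor genes, Ccr4 and Ccr9 fell, while Cxcr6, with its probe between those of Ccr9 and Xcr1, had 0.38.

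**Figure D4:**
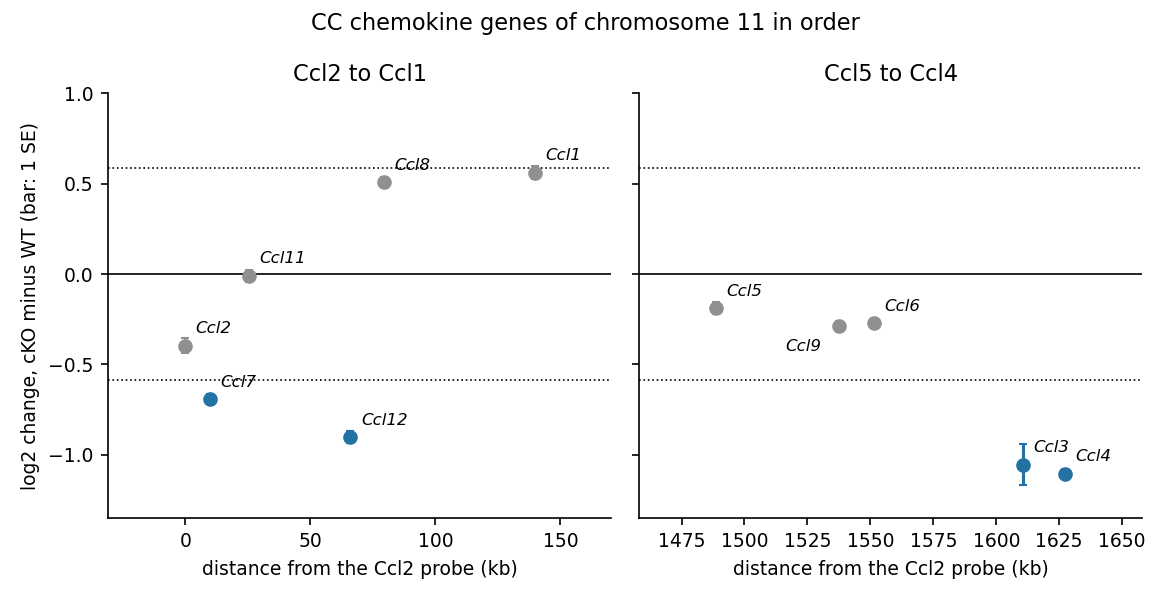
Log2 change between the cKO and WT pools (y axis, bar 1 SE from limma) of the CC ligand genes of chromosome 11 against distance from the Ccl2 probe in kb (x axis), with the 2 gene groups in separate panels, called genes in blue, others in grey and dotted lines at 1.5-fold. Ccl12 at -0.90 and Ccl8 at 0.51 are neighbours, and all 5 genes of the right panel lie below zero.

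Promoter windows of 250 bases before to 50 bases after the start were held by the RefSeq table (GRCm38.p6) for 28 of the 36 genes, in 32 windows. Letters were searched on both strands of each window. TATAAA, the core of the TATA box, was in 28.1% of member windows and in 13.6% of all 32851 windows. The NF-kB (kappa B) consensus, a site of inflammatory induction, was in 18.8% against 8.46%. TGANTCA, the AP-1 site, was in 9.38% against 7.81%, and TTCNNNGAA, the STAT site, in 9.38% against 8.30%. A match only describes the letters, and no overlap between different motifs was resolved. Among the 6 called genes with a window, Ccl12, Cxcl13 and Cxcr4 held TATAAA, Ccr4 held TGANTCA, and none held the other motifs.

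The 150 bases just upstream of the start are given for the neighbours Ccl12 and Ccl8, whose values had opposite signs, and for Ccl3, Cxcl13 and Cxcr4 as called genes of the other groups, 5′ to 3′ on the gene's strand, with searched motifs in capitals.
Ccl12: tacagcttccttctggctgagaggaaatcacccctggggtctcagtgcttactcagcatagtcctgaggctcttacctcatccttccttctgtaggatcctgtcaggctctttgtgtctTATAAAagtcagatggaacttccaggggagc
Ccl8: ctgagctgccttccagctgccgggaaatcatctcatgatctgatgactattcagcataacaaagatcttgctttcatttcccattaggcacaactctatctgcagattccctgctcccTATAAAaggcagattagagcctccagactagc
Ccl3: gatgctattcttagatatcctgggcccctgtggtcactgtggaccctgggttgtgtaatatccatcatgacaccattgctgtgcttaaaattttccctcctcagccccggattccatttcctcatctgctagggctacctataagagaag
Cxcl13: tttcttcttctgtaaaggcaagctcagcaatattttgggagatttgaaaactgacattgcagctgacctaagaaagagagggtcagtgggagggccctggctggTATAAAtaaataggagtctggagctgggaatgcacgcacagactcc
Cxcr4: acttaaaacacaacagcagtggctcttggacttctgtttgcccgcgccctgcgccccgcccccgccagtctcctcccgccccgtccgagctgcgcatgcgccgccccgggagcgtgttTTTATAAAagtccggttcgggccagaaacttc
On GRCm38.p6 these are chr11:82101695-82101844 on the plus strand for Ccl12 and chr11:82115035-82115184 on the plus strand for Ccl8. Ccl3 is at chr11:83649379-83649528 on the minus strand, Cxcl13 at chr5:95956789-95956938 on the plus strand and Cxcr4 at chr1:128592300-128592449 on the minus strand. TATAAA began 31 bases upstream of the start in Ccl12 and 32 bases upstream in Ccl8, so both neighbours, whose values had opposite signs, held it at nearly the same place. In Cxcr4 matches on both strands overlapped. The Ccl3 window held none of the searched motifs.

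Other genes of the chemokine system had 5 calls, with a share of falls near that of all genes. Of 87 listed genes for atypical receptors, further ligands, receptor signalling, leukocyte adhesion, upstream cytokines and ligand processing, 77 were measured, of which 4 fell (5.19%, against 4.82% of all genes tested) and 1 rose (1.30%, against 5.67%), with a median log2 change of -0.14. Those that fell were Ccrl2, a chemerin-binding receptor (1.59-fold), Vcam1, a vessel-wall adhesion molecule (1.51-fold), and the epithelial cytokines Il33 (1.54-fold) and Tslp (1.52-fold). Mmp9, a matrix protease, rose 1.57-fold. These calls were made by limma at adjusted p from 0.0015 to 0.012, all near the threshold of fold, and each was lost in 1 to 5 of 15 alternatives. Leaving out either cKO array, or WT replicate 1, left 2 falls called in place of 4. The calls lost were those of Vcam1 and Ccrl2 without cKO replicate 1 (-0.56 and -0.62) or WT replicate 1 (-0.57 and -0.56), and of Ccrl2 and Il33 without cKO replicate 2 (-0.71 and -0.58), while Tslp was lost without WT replicate 2 (-0.57). None of the 27 receptor signalling genes was called, at log2 values from -0.51 to 0.41. The atypical receptors Ackr1, Ackr4 and Ackr2, which bind chemokines without classical signalling, had log2 values of -0.32, -0.32 and -0.15, and the platelet ligand Pf4, also made by macrophages, had -0.31.

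Fewer cells of a type and less RNA per cell cannot be told apart in whole skin, so the markers of the cells that carry these genes are given beside the changes. Of 10 genes shared by leukocytes none was called, the median log2 change was -0.19, and the summed scaled signal was 53.2 and 53.5 in cKO against 61.1 and 60.7 in WT. Ptprc, which encodes CD45, had -0.24, and the 10 values ran from -0.37 in Arhgdib to 0.27 in Cytip. Of 11 macrophage and monocyte genes only Fcgr1, an Fc receptor, fell (1.57-fold), and the summed signal was 233 and 231 against 261 and 264. Each summed signal is weighted to its brightest probes, here those of Lyz2 (log2 change -0.11) and Ly6c2 (-0.26). The list median was -0.11. Csf1r had -0.09, Adgre1 -0.25 and Mrc1 -0.31, while Mertk had 0.26, the highest value of the 11. Of 10 measured T cell genes 1 rose, Cd4, at least 14.0-fold higher and not well above background in WT (log2 change 3.94, and 2.54 with normexp and quantile), while the list median was 0.15 and the summed signal 3.19 and 3.19 against 2.73 and 2.89. That T cell sum includes Cd4 itself (levels of -1.32 and -1.31 in cKO and -5.32 and -5.19 in WT), so it is not separate from the call. Cd3e had 0.27 and Cd3g -0.12, neither called.

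Langerhans and dendritic cell genes gave no call in 10, with Cd207 at 0.39 and a median of 0.13 (summed signal 85.2 and 81.2 against 76.2 and 77.1). The values ran from -0.32 in Cd209a to 0.49 in H2-Eb1, with Clec10a at -0.20. In the mast cell list, Cma1 and Fcer1a fell (1.61-fold and 1.53-fold) and Hdc rose (2.01-fold), of 6 measured. Cpa3 (-0.49), Mcpt4 (-0.47) and Tpsb2 (-0.36) had negative log2 values and were not called. The mast cell median was -0.48, and the summed signal was 24.2 and 24.2 in cKO against 34.8 and 33.5 in WT. Of 3 measured natural killer cell genes, Klrb1c fell 1.76-fold, a call lost without cKO replicate 2 (log2 -0.73), as was that of Fcer1a (-0.53). With normexp and quantile, the calls of Cma1 (-0.57), Fcer1a (-0.27) and Klrb1c (-0.44) were lost. Of 4 measured neutrophil genes, Mpo rose 1.63-fold (under normexp and quantile its log2 value of 0.57 was no call) and S100a9, which keratinocytes also express, fell 1.63-fold, while Ly6g, Retnlg, Elane, Camp, Ngp and Ltf were not measured. Neither of 2 measured B cell genes was called, and Cd79a, Ms4a1 and Pax5 were not measured. Among vessel genes, Emcn fell 1.73-fold and Lyve1, of lymphatic vessels and macrophages, 1.66-fold, with list medians of -0.22 for blood and -0.32 for lymphatic endothelium.

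Markers of other skin compartments also differed between the pools. Although both groups carried the telogen label, all 8 listed genes of the hair matrix and inner root sheath, structures of growing follicles, rose, with a median log2 change of 7.09 and a summed signal of 240 and 237 in cKO against 1.79 and 1.86 in WT. The largest rises among them were those of the keratins Krt25 (at least 704-fold), Krt35 (log2 8.40) and Krt71 (8.13). Of 8 skeletal muscle genes 5 fell (median -0.66), with Neb (-0.87), Casq1 (-0.84) and Actn3 (-0.76) the furthest. Of 7 adipocyte genes 3 fell (median -0.40), Gpd1 (-1.26), Lep (-0.97) and Retn (-0.70). Of 6 measured melanocyte genes 4 rose, by most Tyrp1 (1.23), Mlana (0.93) and Pmel (0.71). Fibroblast genes gave 1 rise, Dpt (0.77), and 1 fall, Lum (-0.63), of 8, sebocyte genes 1 fall, Soat1 (-0.71), of 4, and no gene of basal (7) or differentiated (8) keratinocytes was called. The part of these differences in the chemokine changes was not tested.

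Under other processing, 4 of the 8 calls, Ccl12, Ccl4, Ccl7 and Cxcl13, held in all 15 alternatives, and none of the 8 changed sign in any of them. Of the 28 genes that were not called, 23 stayed so throughout.

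**Figure D5:**
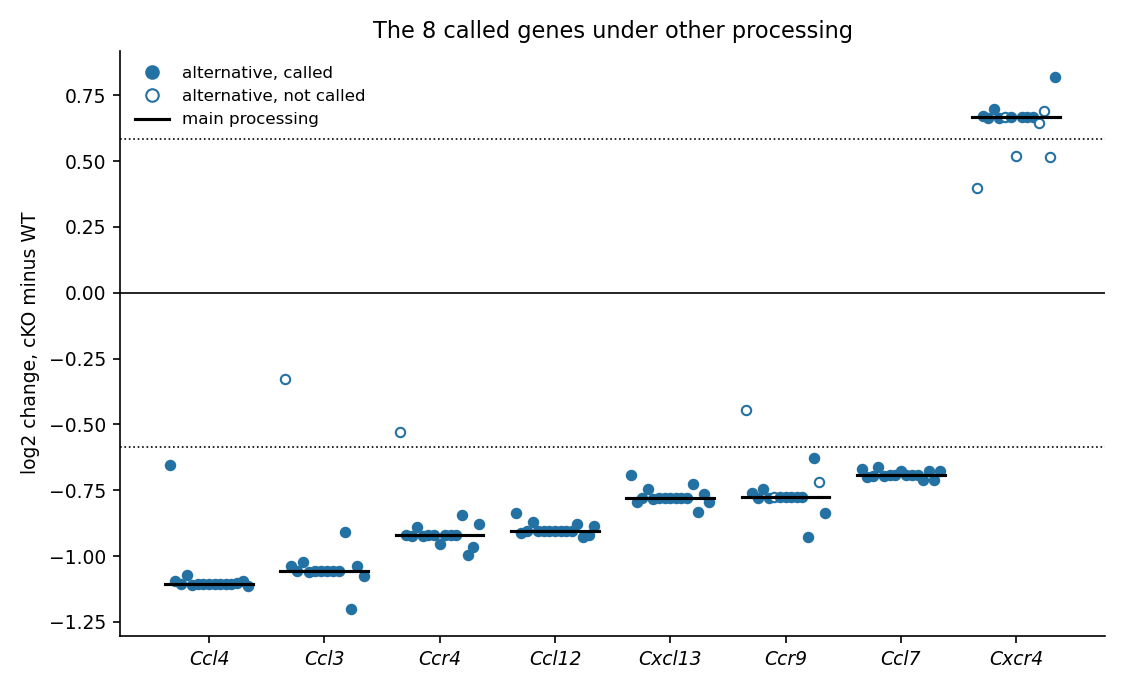
Log2 change between the cKO and WT pools (y axis) of the 8 called genes (x axis) in the main processing (line) and in each alternative (filled circle where called, open circle where not), with dotted lines at 1.5-fold. Ccl12, Ccl4, Ccl7 and Cxcl13 have only filled circles, and Cxcr4 has 6 open ones.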

How the data were processed

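The arrays were read with Agilent Feature Extraction 10.7.3.1 (one colour, Cy3, 200 ng RNA), and the deposited spot intensity was, per the file headers, background-subtracted and detrended within each array. The authors' deposited processed values were found to be this intensity divided by 1 number per array, a linear ratio on the authors' scale (column medians 0.101, 0.0983, 0.0987 and 0.101), with no centring per gene. They served as an alternative. The tool is not given in the sources used.

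Control spots were left out, spots with outlier flags were treated as missing (none among the members, and none saturated), log2 intensities were scaled on each array's 75th percentile, and spots of a probe were averaged. Probes had to be flagged well above background on every array of 1 group or more. Of several such probes, the brightest stood for its gene. Names were updated through RefSeq (GRCm38.p6): 26690 probes by accession, 5189 by symbol, 952 by older symbol, and 8343 kept the file's name. The scanner files give probe coordinates on mm9. Exon or UTR positions are not stated, since gene models of that build were not used.

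The comparison of pools was a two-sided limma fit over all 17555 genes, with no covariates (version 3.58.1, lmFit then eBayes, in R 4.3.3). A fold is given as "at least" where both arrays of a group failed that flag: the brighter group's mean against, on each dim array, the lowest signal that passed the flag, or the probe's own if higher. By rule, every member is accounted for, called or bounded members have values on every array, ligands are set beside their receptors, and up to 3 called genes of each other list are named. Uncalled list genes and members near the threshold were singled out after their values were seen. A gene that the name rule also matched is not reported here, though it stayed in the fit. The members and all lists were chosen with earlier results of these data known.

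The fit of cKO against WT was tested on simulated data with 17550 genes. It called 40.3% of 67 genes given a change of 1.5-fold, 79.1% of 67 given 2-fold, 89.4% of 66 given 4-fold, and 2 unchanged genes. Genes given 1.5-fold lay at the fold threshold of a call itself, so scatter around that threshold limits their share. Only 4 arrays limit the precision. Slide and scan time could not be fitted as batches, since the arrays share 1 slide. Alternatives were other background correction, normalization, scaling, filters, probe summaries and variance moderation, a block for replicate number and the omission of single arrays. R's data.table package (version 1.17.8), Python 3.11.15, pandas 2.3.3 and matplotlib 3.10.9 were also used.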

Additional observations from a re-analysis of the deposited data

How the results depend on the processing

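With normexp background correction and quantile normalization, 4 chemokine and receptor genes fell instead of 7, 481 of all genes fell instead of 847, 2 pathway genes instead of 4 and 10 cell type marker genes instead of 17. The member median was then -0.0657, and it was -0.10 with quantile normalization, -0.12 when the scaling percentile was taken over probes above background on every array, -0.20 with dim probes left in, -0.11 over probes above background on all 4 arrays and -0.12 with probes of a gene averaged. The median of all genes tested moved as well. In the same order of settings, it was -0.01, -0.02, -0.02, -0.16, -0.06 and -0.06. The count of members that rose was 2 with quantile normalization, 3 with that scaling percentile (where 2 pathway genes fell), 0 with dim probes left in and 0 with probes averaged (where 0 pathway genes rose). Leaving out single arrays gave 6 to 8 falling and 0 to 2 rising members, 2 to 4 falling pathway genes and a member median from -0.15 to -0.0913. In these fits a lone array is assumed to vary like the others.

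Sign changes were limited to 8 members near zero or at low signal, none called in the main processing: Ccl19 (0.0125 with normexp and quantile, 0.0531 with quantile), Cxcl14 (0.14 and 0.13 in the same order), Ackr3 (0.0025 with quantile), and Ccl11 (0.0223) and Cx3cl1 (0.0145) when scaled by that percentile. Without single arrays, Ccl11 ran from -0.0422 to 0.0213, Ccl20 from -0.257 to 0.0375, Cx3cl1 from -0.0523 to 0.0160, Cx3cr1 from -0.0815 to 0.0887 and Cxcl1 from -0.766 to 0.0796. The replicate numbers of the labels did not pair the arrays: deviations of same-numbered arrays correlated at r = -0.04, and with the replicate block the members gave 7 falls and 1 rise, with 986 rises and 829 falls among all genes.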
